A study of Homo sapiens with 24 samples.

Results

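The members described here are 38 hypoxia and glycolysis genes, taken by name from the 26485 gene rows of the series. Of these, 18 encode HIF subunits, oxygen sensors or other genes known to be induced in low oxygen, and 20 encode glycolytic enzymes and carriers of glucose and lactate. RNA sequencing counted transcripts in SH-SY5Y, a long-established line grown from a human neuroblastoma, with 24 libraries in 8 labelled groups of 3. At 24 h cells had received TEPA with IFN, DC with IFN, IFN alone, TEPA alone, DC alone or nothing (control). At 4 h they had received copper or nothing (control). TEPA, a polyamine given as its pentahydrochloride, and DC (dextran-catechin) are copper chelators, and IFN is interferon gamma. Doses are not given in the labels, nor is it stated that libraries of 1 group came from separate cultures, so p-values measure only the spread between these libraries. The question was how TEPA acted on these genes without and with IFN.

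Hypoxia-inducible factor (HIF) is a transcription factor made of an oxygen-regulated alpha subunit, encoded by HIF1A or EPAS1, and a stable partner. When oxygen is present, prolyl hydroxylases such as EGLN1 mark the alpha subunit for destruction, so HIF activity is set mainly by protein stability and transcript levels of the subunits need not follow it. When oxygen is short, HIF binds short DNA elements with the core RCGTG and raises genes of glucose uptake, glycolysis, mitochondrial turnover and its own hydroxylases. PDK1, which holds pyruvate out of the mitochondrial citric acid cycle, and BHLHE40, a transcriptional repressor, are among these targets.

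Library totals lay between 24569980 and 35372442 counts. The libraries carried the neuroblastoma transcript HAND2 at 308 to 407 CPM (counts scaled to the TMM-adjusted library total), while TH, the rate-limiting enzyme of catecholamine synthesis, did not exceed 0.0359 CPM. KRT5, KRT14 and CD3E had 0 counts in every library, whereas the matrix genes LUM (88.7 to 224 CPM) and DCN (23.7 to 76.4 CPM) were present. Levels also varied with the GC content of genes from library to library. This was measured as a GC difference, the median log2 level of genes above 60% GC minus that of genes below 40% GC in the same library. At 24 h it was 0.42 ± 0.38 with TEPA and IFN, 0.45 ± 0.51 with IFN, -0.37 ± 0.87 with TEPA and -0.69 ± 0.31 in the control (SD, n = 3). At 4 h it was 0.47 ± 1.01 with copper and 0.22 ± 1.37 in the control, with control library 1 at -1.31. In bulk RNA, fewer cells of a type and less RNA per cell cannot be told apart.

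Promoters are shown for BHLHE40 and PDK1, which TEPA lowered, and for HK2, which IFN and copper raised, because they differ in HIF core sequences. Each is the 250 bases before the RefSeq start on GRCh38.p14, 5′ to 3′ on the gene's strand, at chr3:4979187-4979436, chr2:172555123-172555372 and chr2:74833877-74834126 (all on the plus strand). Capitals mark ACGTG or GCGTG on either strand, which read CACGT or CACGC on the other.
BHLHE40: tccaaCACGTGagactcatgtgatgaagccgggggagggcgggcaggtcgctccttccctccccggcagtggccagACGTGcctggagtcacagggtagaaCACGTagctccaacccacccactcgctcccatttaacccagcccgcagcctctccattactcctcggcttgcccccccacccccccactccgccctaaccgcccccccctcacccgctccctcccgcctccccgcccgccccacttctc
PDK1: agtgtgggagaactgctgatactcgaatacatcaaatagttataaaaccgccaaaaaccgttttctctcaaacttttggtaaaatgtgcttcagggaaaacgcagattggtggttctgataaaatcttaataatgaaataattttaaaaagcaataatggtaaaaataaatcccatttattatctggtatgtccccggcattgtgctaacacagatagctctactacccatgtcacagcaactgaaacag
HK2: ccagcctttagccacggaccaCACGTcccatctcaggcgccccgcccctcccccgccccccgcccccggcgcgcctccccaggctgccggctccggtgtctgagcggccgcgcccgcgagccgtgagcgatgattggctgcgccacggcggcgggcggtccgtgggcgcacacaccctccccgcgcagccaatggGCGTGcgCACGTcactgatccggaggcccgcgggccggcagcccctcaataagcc
BHLHE40 held 4 such matches, of which a pair overlap in the palindrome CACGTG, HK2 held 3 and PDK1 none. Of 34 members with a promoter in the table, 23 (67.6%) held at least 1 match, against 43.1% of 27305 promoters of the same length. The members' promoters had a median GC content of 69.8%, against 58.0% of all, and both cores contain CG. A match is a description of these letters and not evidence of binding, and other windows were not searched.

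Glycolytic enzymes dominated the levels in untreated cells. Per kilobase of the longest coding transcript, LDHA, which converts pyruvate to lactate, had 347 ± 20.8 CPM in the 24 h control and GAPDH 332 ± 62.3 CPM (SD, n = 3), values that overlapped. ENO1 (252 ± 31.3), PKM (204 ± 38.4), PGAM1 (169 ± 18.3) and TPI1 (166 ± 28.3) followed, each within the spread of its neighbour. HIF1A came next at 131 ± 5.4 CPM per kilobase, above EPAS1 at 8.2 ± 0.75. The lowest members that passed the filter on low counts were BHLHE40 at 0.175 ± 0.020 and ADM, the adrenomedullin peptide hormone, at 0.074 ± 0.029. Several glycolytic genes have processed pseudogenes, and how the counting treated reads shared with them is not known, so their absolute levels are uncertain.

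**Figure D1:**
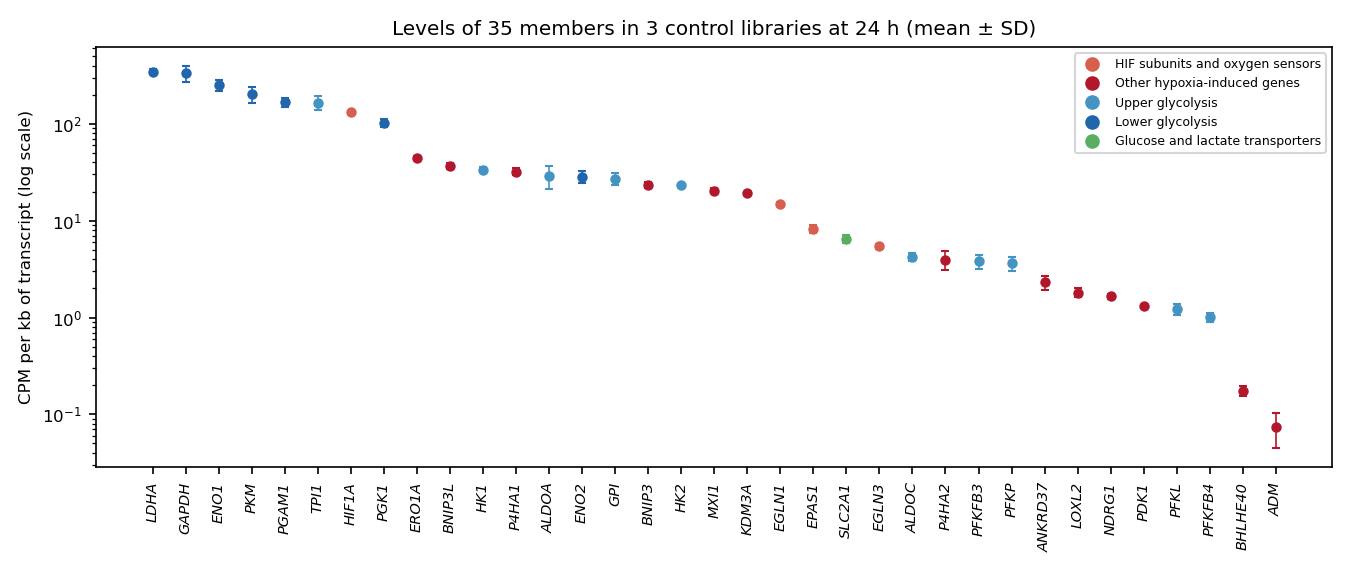
Mean level of 35 members in the 3 untreated libraries at 24 h, in CPM per kilobase of transcript on a log scale, with SD bars and colours by role. Lower glycolysis genes hold the top 5 places, and BHLHE40 and ADM sit below all others.

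CA9, SLC2A3 and SLC16A3 were too low to test. CA9, the hypoxia-induced carbonic anhydrase, had 1 count in each of 2 libraries and 0 in the other 22. SLC2A3, the neuronal glucose transporter, had 0 counts in 20 libraries and at most 2. SLC16A3, the lactate exporter, had 0 counts in 11 libraries and 14 at most. A count of 0 allows up to 3 counts, which is 0.0796 to 0.125 CPM depending on the library and covers counting error only. The other 35 members entered the tests.

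TEPA lowered BHLHE40 and PDK1. Averaged over cells without and with IFN, 0 of 35 members rose and 2 (5.71%) fell at an adjusted p under 0.05 in edgeR's quasi-likelihood test, where 6.34% of all 14654 genes were called (2.68% higher and 3.66% lower), so the share of members called was near the background. BHLHE40 fell by 1.22 on the log2 scale (SE 0.15, adjusted p = 4.19e-05) and PDK1 by 0.56 (SE 0.13, adjusted p = 0.0156). Both stayed below the threshold when any of the 12 libraries was left out, with PDK1 at an adjusted p of 0.0465 at most. The median log2 fold change was -0.10 over 17 hypoxia members and -0.01 over 18 glycolysis and transport members, against 0.01 over all genes.

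BHLHE40 (chromosome 3, 4979116 to 4985323, GRCh38) was scarce in every group. It had 0.209, 0.198 and 0.311 CPM with TEPA and IFN, against 0.805, 0.719 and 0.763 CPM with IFN alone. Without IFN it had 0.331, 0.398 and 0.319 CPM with TEPA, against 0.679, 0.537 and 0.608 CPM in the control. The groups did not overlap in either comparison, and the raw counts behind them were low, at 6, 6 and 10 with TEPA and IFN and 23, 20 and 24 with IFN. With IFN the log2 fold change was -1.65 (SE 0.22, adjusted p = 0.000444), and BHLHE40 was the only member of 35 called (2.86%, against 1.9% of all genes in either direction and 1.15% lower). That call was lost when the 6 libraries were fitted alone (adjusted p = 0.0616). The summed level of 5 Schwann cell markers was 60.9 to 64.3 CPM with TEPA and IFN, against 73.6 to 78.7 CPM with IFN, and its part in the result was not tested. Without IFN the log2 fold change was -0.79 (SE 0.27, adjusted p = 0.246 in edgeR), and no member was called (1.06% of all genes), with 2 members at an unadjusted p under 0.05 and 0 called in DESeq2.

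PDK1 (chromosome 2, 172555373 to 172608669) is a kinase that inactivates pyruvate dehydrogenase. It had 8.58, 8.74 and 12.7 CPM with TEPA and IFN, against 17.4, 13.5 and 19.5 CPM with IFN. Without IFN it had 14.2, 13.5 and 15.5 CPM with TEPA, against 18.5, 19.2 and 17.98 CPM in the control. TEPA libraries were below their own controls throughout. The log2 fold change was -0.75 with IFN (SE 0.19, adjusted p = 0.0502 in edgeR and 0.0069 in DESeq2) and -0.37 without it (SE 0.19, adjusted p = 0.576 in edgeR). The first was called without IFN library 2 (adjusted p = 0.0305) or TEPA and IFN library 3 (adjusted p = 0.0154), and was called with the GC trend removed (-0.72, adjusted p = 0.00105).

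**Figure D2:**
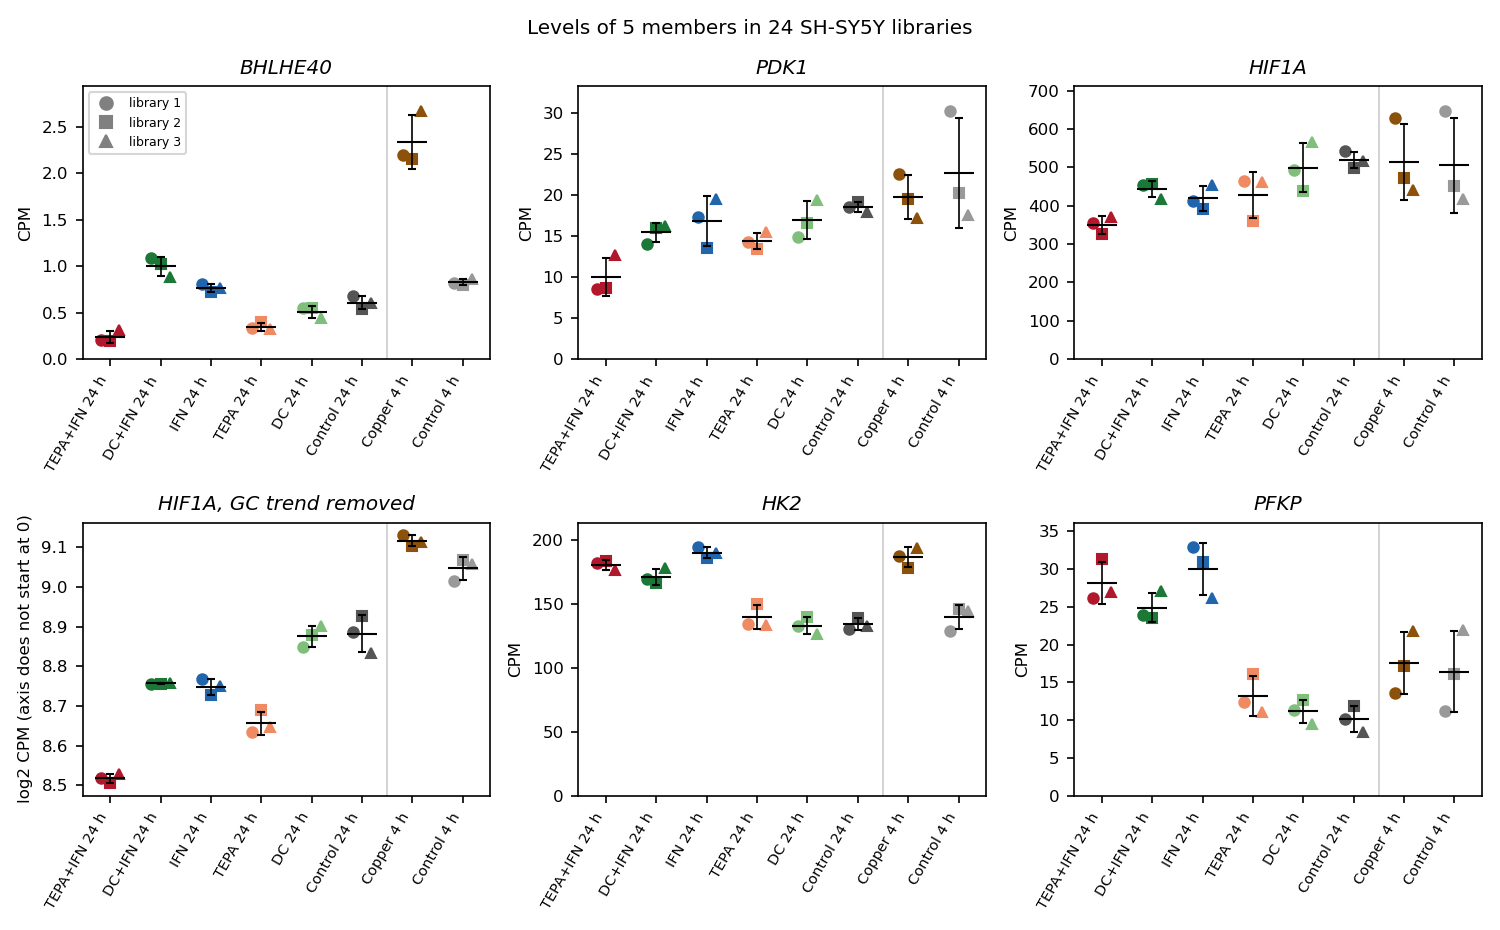
Levels of BHLHE40, PDK1, HIF1A, HK2 and PFKP in the 3 libraries of each group (points, by library number), with mean and SD (bars). Vertical axes are CPM from 0, except the fourth panel, which shows HIF1A as log2 CPM with the GC trend removed. TEPA groups are lowest for BHLHE40, PDK1 and the adjusted HIF1A, groups with IFN are high for HK2 and PFKP, and copper stands above its control for BHLHE40 and HK2.

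HIF1A (chromosome 14, 61695513 to 61748259), the most AT-rich member at 37.3% GC, had 355, 325 and 371 CPM with TEPA and IFN, against 412, 391 and 455 CPM with IFN. Without IFN it had 464, 359 and 462 CPM with TEPA, against 542, 499 and 517 CPM in the control. All TEPA libraries were below all libraries of their control in both settings. The log2 fold changes were nevertheless uncalled, at -0.26 with IFN (SE 0.15, adjusted p = 0.595 in edgeR) and -0.28 without IFN (SE 0.15, adjusted p = 0.614), and the second was called with the replicate number as a block (log2 fold change -0.28, adjusted p = 0.0377), the only member called there, where 5.85% of all genes were. With the GC trend removed the spread between libraries shrank and both changes were called, at -0.23 (SE 0.03, adjusted p = 3.07e-05) with IFN and -0.23 (SE 0.03, adjusted p = 5.49e-05) without. On that scale HIF1A lay at 8.52, 8.51 and 8.53 log2 CPM with TEPA and IFN against 8.77, 8.73 and 8.75 with IFN, and at 8.63, 8.69 and 8.65 with TEPA against 8.89, 8.93 and 8.83 in the control. The HIF1A call therefore depends on the GC correction or the block.

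Removing the GC trend raised the number of members called with TEPA. Without IFN 2 of 35 fell (5.71%, against 8.13% of all genes, 4.23% lower). With IFN 8 fell (22.9%, against 12.5% of all genes, 5.45% lower). In the average 1 rose and 10 fell (31.4%, against 22.1% of all genes, 11.6% higher and 10.4% lower). Without IFN these were HIF1A and P4HA1, a subunit of the collagen prolyl hydroxylase, which had -0.24 (SE 0.06, adjusted p = 0.00941). With IFN they were BHLHE40, PDK1, HIF1A, P4HA1, EPAS1, the oxygen sensor EGLN1, the endoplasmic reticulum oxidase ERO1A and the aldolase ALDOC. EPAS1 had -0.48 (SE 0.14, adjusted p = 0.0247) and ALDOC -0.65 (SE 0.16, adjusted p = 0.00927) on that scale, against adjusted p = 0.147 and 0.354 without the correction. EPAS1 had 25.1, 28.3 and 19.5 CPM with TEPA and IFN, against 38.4, 36.3 and 28.0 CPM with IFN, and 39.7, 37.0 and 41.9 CPM with TEPA, against 45.3, 37.9 and 43.8 CPM in the control. The EPAS1 groups overlapped in both settings, with IFN through TEPA library 2 and IFN library 3 alone. ALDOC had 7.19, 9.03 and 6.97 CPM with TEPA and IFN, against 14.04, 12.5 and 10.3 CPM with IFN, with no overlap. EGLN1 had -0.25 (adjusted p = 0.0117) and ERO1A -0.22 (adjusted p = 0.0387) with IFN and the trend removed. The glycolytic enzymes PGAM1 (-0.15, adjusted p = 0.0401) and PKM (-0.24, adjusted p = 0.0395) joined these in the average. EGLN3, the other hydroxylase of the list, was the member that rose in the average (0.25, SE 0.09, adjusted p = 0.0368 with the trend removed, and 0.314 without).

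Members whose levels did not pass the test in either TEPA setting included the best-known markers of glycolysis. HK2, the inducible hexokinase, had 182, 183 and 176 CPM with TEPA and IFN, against 194, 185 and 190 CPM with IFN, and 134, 150 and 134 CPM with TEPA, against 130, 139 and 133 CPM in the control. The groups were apart by a small margin with IFN and overlapped without it, and the averaged TEPA effect was -0.01 (95% interval -0.10 to 0.09). LDHA had 788, 690 and 901 CPM with TEPA and IFN, against 836, 719 and 992 CPM with IFN, and 868, 777 and 824 CPM with TEPA, against 861, 873 and 781 CPM in the control. The averaged effect was -0.06 (interval -0.25 to 0.13), and the groups overlapped. SLC2A1, the widely expressed glucose transporter, had 32.9, 40.4 and 32.8 CPM with TEPA and IFN, against 38.5, 39.5 and 30.3 CPM with IFN, and 21.0, 34.02 and 24.5 CPM with TEPA, against 23.3, 26.5 and 22.1 CPM in the control. Its interval was wider (0.06, from -0.32 to 0.44). Without the GC correction, LOXL2 had an averaged effect of 0.43 (adjusted p = 0.194). The members not given a value so far lay between -0.16 (PKM) and 0.20 (ALDOA) on that scale, and none was called. They include the mitophagy receptors BNIP3 and BNIP3L, the collagen hydroxylase subunit P4HA2, the stress-responsive NDRG1, the ankyrin repeat gene ANKRD37, the phosphofructokinases PFKL and PFKP with their regulators PFKFB3 and PFKFB4, the isomerase GPI and the enolase ENO2.

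The TEPA effect with IFN minus that without IFN was the direct test of whether IFN altered it. No member passed, nor did any of the 14654 genes (0.0%) in the main edgeR fit, and DESeq2 called none either. In the main fit 205 genes and 0 members had an unadjusted p under 0.05. A few genes, but no member, were called in other edgeR fits. Their share was 0.0205% with the GC trend removed, 0.0341% with a replicate block and 0.184% with both. BHLHE40 had the difference nearest to the threshold among members, at -0.86 (95% interval -1.76 to 0.05, unadjusted p = 0.0621, adjusted p = 1). For PDK1 it was -0.38 (interval -0.94 to 0.18) and for HIF1A 0.02 (interval -0.43 to 0.47), which the GC correction narrowed to a difference of -0.01 with an SE of 0.04. These intervals leave room for a larger effect on BHLHE40 with IFN, and the difference in calls between the settings is not a tested difference in effect.

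Across the 35 members the TEPA effects in the 2 settings, which share no libraries, had a Pearson correlation of 0.582 and a Spearman correlation of 0.467. Across all 14654 genes these were 0.298 and 0.43. Genes of a library are not independent. The sign was the same in 18 of 35 members (51.4%), against 67.5% of all genes, and 14 of the 18 were lower in both. All 18 tested glycolysis and transport members had a negative log2 fold change with IFN, with a median of -0.14, while their median without IFN was 0.07. The medians of all genes were -0.02 with IFN and 0.02 without. None of the 18 was called in either setting without the GC correction. With the GC trend removed the medians of the 18 were -0.12 with IFN and 0.00 without, against 0.01 and -0.0003 for all genes.

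**Figure D3:**
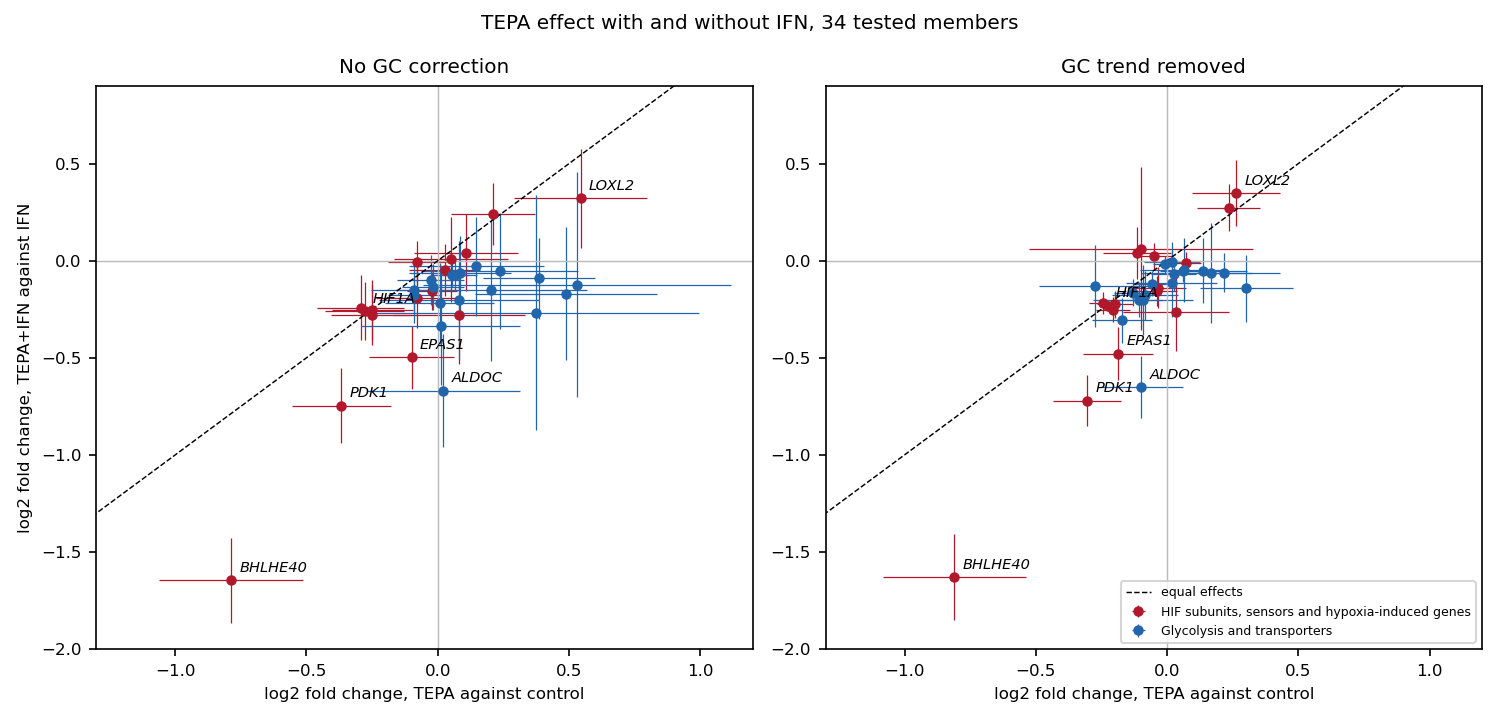
Log2 fold change with TEPA in the presence of IFN (vertical) against that in its absence (horizontal) for 34 tested members, with SE bars, without and with the GC correction. ADM, which has few counts, is left out, and the dashed line marks equal effects. BHLHE40 and PDK1 are negative on both axes in both panels. Once the trend is removed, the glycolysis members lie around 0 on the horizontal axis and mostly below 0 on the vertical axis.

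No member passed the test with DC, with 0 called with DC against control (0.0136% of all genes), with DC and IFN against IFN (0.0205%) or in the difference between them (0.0%). At an unadjusted p under 0.05 there were 0, 1 and 0 members with DC alone, with DC and IFN and in the difference, by edgeR, and DESeq2 called 0 in each. BHLHE40 had 1.08, 1.02 and 0.887 CPM with DC and IFN, against 0.805, 0.719 and 0.763 CPM with IFN. Without IFN it had 0.546, 0.548 and 0.437 CPM with DC, against 0.679, 0.537 and 0.608 CPM in the control.

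Set against DC, and averaged over IFN status, BHLHE40 was lower with TEPA (log2 fold change -1.28, SE 0.15, adjusted p = 2.06e-05) and LOXL2, a copper-dependent lysyl oxidase, was higher (0.66, SE 0.18, adjusted p = 0.0304). These 2 of 35 members (5.71%) compare with 7.34% of all genes, 3.3% higher and 4.04% lower. LOXL2 had 8.20, 10.3 and 8.25 CPM with TEPA and IFN, against 4.96, 5.65 and 6.27 CPM with DC and IFN. It had 6.69, 13.0 and 8.44 CPM with TEPA, against 5.89, 6.78 and 5.21 CPM with DC. Only the groups with IFN were fully apart, and the LOXL2 call was lost in 7 of 12 fits that left out a library, with an adjusted p of up to 0.111. These were the fits without TEPA and IFN library 1 or 2, DC and IFN library 1 or 2, TEPA library 2, or DC library 1 or 3. With the GC trend removed 9 members were called (25.7%, against 23.0% of all genes). These were BHLHE40, LOXL2, PDK1, HIF1A, EPAS1, EGLN1, P4HA1, ERO1A and ENO2, of which HIF1A had -0.23 (SE 0.02, adjusted p = 1.66e-07) and ENO2 -0.19 (SE 0.06, adjusted p = 0.0392). Same-numbered TEPA and DC libraries deviated together without IFN but not with it, and with the replicate number as a block 9 members were called (19.7% of all genes), with BNIP3 in place of ENO2. The doses of both chelators are not given, so this is a difference between 2 treatments and not between compounds at matched doses.

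IFN alone raised 6 members and lowered 1 of 35 (20.0%, against 18.8% of all genes, 10% higher and 8.8% lower), so the members were called about as often as other genes. PFKP, the platelet-type phosphofructokinase (chromosome 10, 3066333 to 3137712), had 32.9, 30.9 and 26.2 CPM with IFN, against 10.1, 11.8 and 8.40 CPM in the control. It rose by 1.57 (SE 0.22, adjusted p = 2.61e-05), and by 0.95 (SE 0.10, adjusted p = 4.89e-07) with the GC trend removed. Both hexokinases rose with it. HK1 had 221, 219 and 187 CPM with IFN, against 131, 144 and 129 CPM in the control (0.64, SE 0.12, adjusted p = 0.000637), and HK2 rose by 0.50 (SE 0.06, adjusted p = 1.04e-05). Hexokinases act at the first step of glycolysis and phosphofructokinases at the committed step, where PFKL, the other phosphofructokinase of the list, was not called.

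PGAM1 (0.51, SE 0.10, adjusted p = 0.00105) and PGK1 (0.34, SE 0.08, adjusted p = 0.00627) were the called members of lower glycolysis, and with the GC trend removed these were 0.29 and 0.44. PGK1 lost its call without control library 3 or IFN library 1 (adjusted p up to 0.0814). ADM had the largest fitted rise of the called members, 2.07 (SE 0.47, adjusted p = 0.00419), and 1.32 (adjusted p = 0.0405) with the GC trend removed, on 16, 24 and 12 counts with IFN, against 6, 3 and 4 counts in the control. BNIP3L, a mitophagy receptor, had 95.2, 89.4 and 104 CPM with IFN, against 142, 122 and 133 CPM in the control. It fell by 0.46 (SE 0.16, adjusted p = 0.0467), a call lost without IFN library 1 or 2 or control library 1 or 3 (adjusted p up to 0.122). GAPDH (0.84, SE 0.37, adjusted p = 0.103) and ALDOA (1.32, SE 0.59, adjusted p = 0.109) were not called.

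The IFN effect on the members went with GC content. Across 35 members its Pearson correlation with GC content was 0.63. The GC difference over all genes was also higher with IFN (0.45 ± 0.51) than in the control (-0.69 ± 0.31). Once the trend was removed the members' correlation was 0.0632. The correction takes out a GC trend by design, so that fall is not a result about the members. The median of the 18 glycolysis and transport members was 0.59 against 0.01 for all genes, and 0.23 against -0.09 after the correction, which itself shifted the median of all genes. After it, 6 members rose and 9 fell (42.9%, against 38.9% of all genes, 11.3% higher and 27.5% lower). PFKP, HK1, HK2, PGAM1, PGK1, ADM and BNIP3L all kept their direction and their calls. EPAS1 was among the members lower with the trend removed (-0.73, SE 0.14, adjusted p = 0.000254), against -0.31 (adjusted p = 0.156) without it. Of 18 glycolysis and transport members, all had a positive log2 fold change without the correction and 3 a negative one with it. Marker lists of several cell types also differed with IFN. The summed level of 5 leukocyte markers was 5.53 to 7.76 CPM with IFN, against 0.509 to 1.71 CPM in the control, and CD68 among them rose (3.34, adjusted p = 0.000457), while PTPRC stayed at or under 0.698 CPM and CD3E at 0 in every library. The sum of 8 fibroblast and endothelial markers was 287 to 337 CPM with IFN, against 212 to 278 CPM in the control, where PDGFRB rose (1.15, SE 0.31) and COL1A2 fell by 0.82 (SE 0.22). The sum of 5 Schwann cell markers was 73.6 to 78.7 CPM with IFN, against 60.2 to 66.8 CPM in the control, with PMP22 called (0.23, SE 0.07). The sum of 10 neuroblastoma markers was lower, at 2040 to 2180 CPM with IFN, against 2280 to 2390 CPM in the control, with STMN2 called (-0.63, SE 0.13). The part of these markers in the result was not tested.

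**Figure D4:**
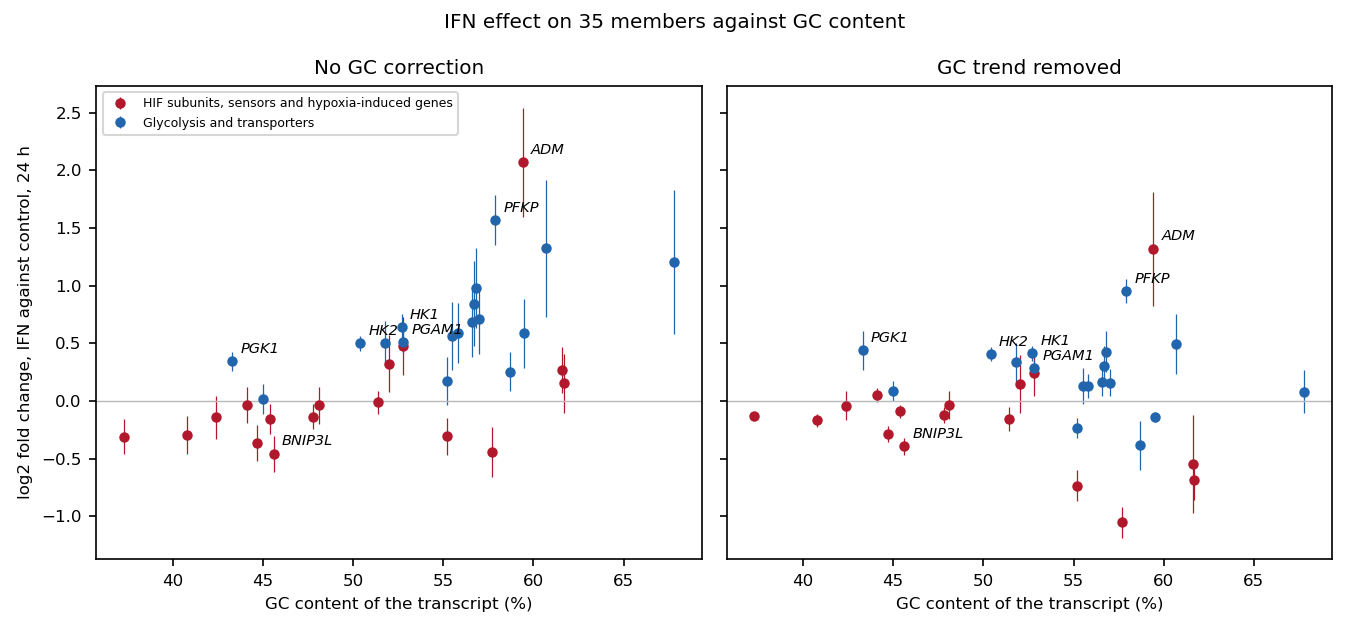
Log2 fold change with IFN against control at 24 h for 35 members, with SE bars, against the GC content of the transcript in percent, without (left) and with (right) the GC correction. The slope with GC content seen on the left is flat on the right, because the correction removes it by design. PFKP, HK1, HK2, PGAM1, PGK1 and ADM stay above 0.

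Copper at 4 h raised BHLHE40, HK2 and MXI1 and lowered EGLN3 and PGAM1. These 5 of 35 members (14.3%) compare with 5.85% of all genes, 2.65% higher and 3.2% lower. BHLHE40, the member lowest with TEPA and IFN, had 2.19, 2.15 and 2.67 CPM with copper, against 0.821, 0.795 and 0.863 CPM in the 4 h control. It rose by 1.495 on the log2 scale (SE 0.18, adjusted p = 1.84e-05). HK2 had 188, 178 and 194 CPM with copper, against 129, 146 and 145 CPM in the control, a rise of 0.41 (SE 0.06, adjusted p = 0.000346). For both genes the groups did not overlap, and both calls held in 6 of 6 fits that left out a library.

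EGLN3, the oxygen sensor whose transcript is a classic HIF target, had 10.1, 7.38 and 7.31 CPM with copper, against 15.8, 12.9 and 12.8 CPM in the control. It fell by 0.74 (SE 0.16, adjusted p = 0.00768), and that call too held without any 1 library. MXI1, an antagonist of MYC, had 83.5, 77.5 and 67.7 CPM with copper, against 66.3, 57.3 and 51.1 CPM in the control (0.39, SE 0.11, adjusted p = 0.0428), and lost its call without copper library 1 or 2 or control library 2 or 3 (adjusted p up to 0.0928). PGAM1, with 273, 294 and 299.6 CPM with copper, against 327, 383 and 397 CPM in the control, fell by 0.35 (SE 0.10, adjusted p = 0.0405) and lost its call in all such fits but that without control library 1 (adjusted p up to 0.168). With the replicate number as a block, 7 members were called (15.6% of all genes), the additional ones being the histone demethylase KDM3A (0.41, adjusted p = 0.00177) and LDHA (-0.36, adjusted p = 0.00929). With the GC trend removed 10 members were called (28.6%, against 21.3% of all genes). Those gained were KDM3A (0.44, adjusted p = 1.37e-05), LDHA (-0.32, adjusted p = 0.0106), SLC2A1 (0.34, adjusted p = 0.0233), P4HA1 (0.18, adjusted p = 0.0266) and GPI (-0.18, adjusted p = 0.00377). The summed level of 5 Schwann cell markers was 29.7 to 30.9 CPM with copper, against 45.7 to 49.2 CPM in the control, and its part in these results was not tested. With the 6 libraries of 4 h fitted alone, none was called, and BHLHE40 had an adjusted p of 0.0654.

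HIF1A itself, at 627, 472 and 441 CPM with copper, against 647, 451 and 417 CPM in the control, had a log2 fold change of 0.02 (95% interval -0.29 to 0.34). EPAS1 had 0.09 (interval -0.25 to 0.43) and SLC2A1 0.39 (interval -0.14 to 0.93). No change in the transcripts of the HIF alpha subunits was detectable at this spread. BHLHE40 was lower with TEPA and higher with copper, but the TEPA comparisons were made at 24 h with other controls, and the difference was not tested.

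**Figure D5:**
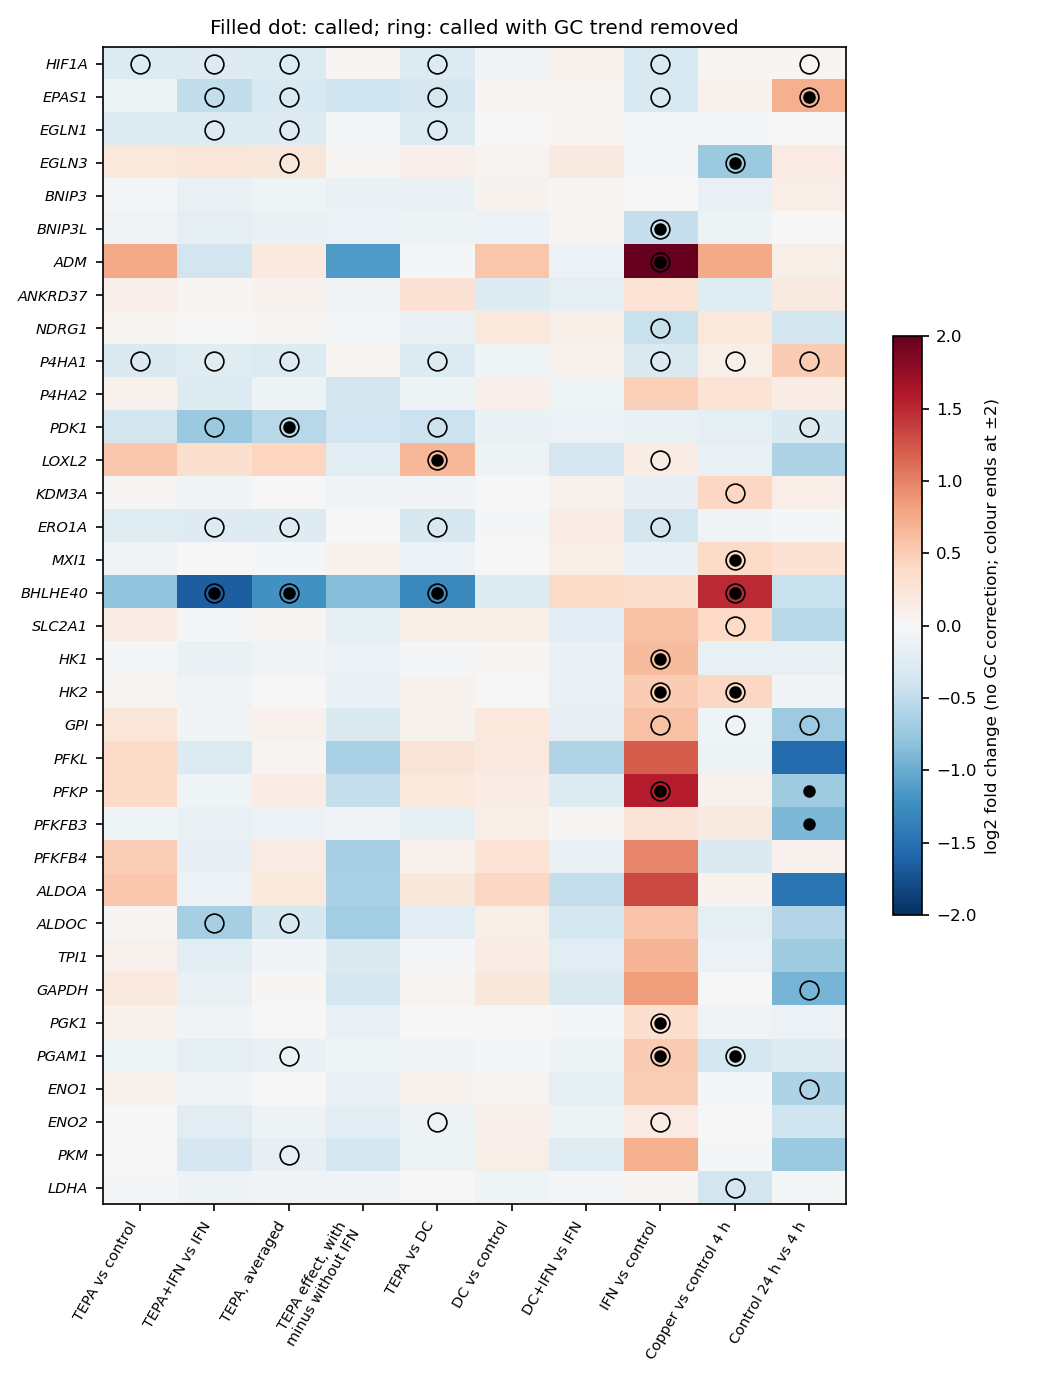
Log2 fold change of 35 tested members (down the page) in 10 comparisons (across), as colour from blue (lower) to red (higher). Filled dots mark calls at an adjusted p under 0.05 in edgeR and rings mark calls with the GC trend removed. The TEPA columns are blue for BHLHE40 and PDK1, the DC columns hold no mark, and the IFN column is red for most glycolysis members.

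Untreated cells at 24 h differed from those at 4 h in 3 of 35 members (8.57%, against 9.69% of all genes, 5.9% higher and 3.79% lower). EPAS1 had 45.3, 37.9 and 43.8 CPM at 24 h, against 19.9, 28.3 and 29.2 CPM at 4 h, and rose by 0.71 (SE 0.16, adjusted p = 0.00981). PFKFB3, a regulator of phosphofructokinase, fell by 0.90 (SE 0.17, adjusted p = 0.00242) and PFKP by 0.70 (SE 0.21, adjusted p = 0.0439). With the GC trend removed 7 members were called (20.0%, against 26.2% of all genes). EPAS1 stayed called (0.96) and the other 2 did not (adjusted p = 0.0914 for PFKFB3 and 0.0716 for PFKP). Those gained were P4HA1, which was higher (0.32, adjusted p = 0.000358), and HIF1A, PDK1, GPI, GAPDH and ENO1, which were lower, ENO1 by the most (-0.59, adjusted p = 0.0138). EPAS1 lost its call without control library 1 or 3 of 24 h (adjusted p up to 0.0629), and PFKP without either of these or control library 2 or 3 of 4 h (adjusted p up to 0.304). Without control library 1 of 4 h, which had the lowest GC difference, 21 members were called (49.8% of all genes).

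Other genes of the same pathways gave the setting. Of 12 regulators of the HIF pathway, none was called with TEPA in either setting or in the average. Of 21 tested further hypoxia-induced genes, none was called with TEPA, 1 rose with TEPA and IFN, 7 rose and 3 fell with IFN, and 5 rose and none fell with copper. All-gene shares called in these comparisons were 1.06%, 1.9%, 18.8% and 5.85%. Of the 7 that rose with IFN, DDIT4, VEGFA and IGFBP3 were not called with the GC trend removed (adjusted p = 0.109, 0.581 and 0.585), and the last 2 then had log2 fold changes of -0.12 and -0.05. The copper-induced genes included STC2 (4.52, SE 0.18), a secreted glycoprotein, DDIT4 (4.41, SE 0.29), an inhibitor of mTORC1, VLDLR (2.59, SE 0.20), a lipoprotein receptor, and the angiogenic factor VEGFA (1.94, SE 0.24). STC2 was also the gene that rose with TEPA and IFN (0.81, SE 0.16, adjusted p = 0.00912). Copper also raised 17 of 19 tested targets of ATF4, which drives the cell's response to stress and amino acid shortage. VLDLR stands on both lists, and the part of ATF4 in the hypoxia-induced genes was not tested. Of 10 tested further glycolysis genes, 1 fell with copper and 1 with IFN, and TIGAR, a target of p53, rose with TEPA in the average (0.40, SE 0.10, adjusted p = 0.0203). Of 12 genes that govern pyruvate entry into mitochondria, 3 fell with IFN, among them the kinases PDK4 (-1.60, SE 0.38) and PDK3 (-0.59, SE 0.13), and none was called with TEPA.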

How the data were processed

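RNA of 24 SH-SY5Y libraries was extracted with a column kit and made into libraries with a stranded mRNA kit, per the labels' protocols. The deposited values are raw whole-number counts per gene symbol. The submitters' processing notes name STAR 2.5a, RSEM 1.2.31 and genome build hg38, without steps, annotation release or strand setting, so antisense partners could not be separated. Each library's own list equalled its column of the table in 24 of 24 cases.

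In R 4.3.3, filterByExpr of edgeR 4.0.16 (minimum count 10) left 14654 genes, scaled with TMM. A quasi-likelihood model with 1 mean per group was fitted to all 24 libraries (16 residual degrees of freedom), with calls made below 0.05 after Benjamini-Hochberg adjustment over all genes tested. A gene's SE is its log2 fold change divided by the t value that matches its p. DESeq2 1.42.0, its size factors, no filter, a GC offset (spline with 5 degrees of freedom in each library's log2 CPM, for the 97% of tested genes with a GC content), a replicate block, the compared libraries alone and leaving out each library were the alternatives. Symbols were matched to GENCODE 29 (93.0%), and promoters are RefSeq's.

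Same-numbered libraries deviated together in TEPA against control (correlations 0.363, 0.575 and 0.232), DC against control (0.154, 0.55 and 0.229) copper against control (0.866, 0.35 and 0.817) and TEPA against DC without IFN (0.121, 0.755 and 0.522), so there the numbers were taken to pair libraries. The main fit did not use this pairing, which entered only the alternative fits with a replicate block. The correlations were computed without the GC correction. The GC difference of same-numbered libraries also moved together at 4 h (-0.65, 0.76 and 1.30 with copper, -1.31, 0.65 and 1.33 in the control). The part of the GC trend in the correlations was not tested. The labels do not say what the number marks.

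Members, lists, comparisons and the naming rule (called members, plus HIF1A, EPAS1, HK2, LDHA, PDK1 and SLC2A1 whatever their values) were chosen with earlier results of these data known. Promoters were chosen after the values were seen, as were KDM3A, GAPDH, ALDOA and members named for a call with the GC trend removed. Limits on counts of 0 cover counting error only, while the fitted intervals include the spread between libraries.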

Additional observations from a re-analysis of the deposited data

How the results depend on the processing

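The counts of members called with TEPA against control, TEPA and IFN against IFN, TEPA averaged, IFN, TEPA against DC, copper and time were 0, 1, 2, 7, 2, 5 and 3. With the GC trend removed they were 2, 8, 11, 15, 9, 10 and 7. With a replicate block they were 1, 5, 9, 23, 9, 7 and 17, and with a replicate block and the GC trend removed 4, 11, 13, 21, 14, 11 and 20. The shares of all genes called moved with these, at 8.13, 12.5, 22.1, 38.9, 23.0, 21.3 and 26.2% with the GC trend removed, 5.85, 7.23, 16.7, 56.0, 19.7, 15.6 and 40.9% with the block, and 13.7, 18.5, 29.1, 49.9, 30.7, 27.2 and 36.5% with both. With the compared libraries alone the members called were 0, 0, 2, 22, 5, 0 and 0, against 0, 0.86, 6.31, 47.8, 8.09, 0.438 and 0.00725% of all genes. With a replicate block as well they were 0, 14, 7, 23, 7, 8 and 0, against 1.78, 19.7, 13.8, 51.7, 10.8, 18.3 and 0%. DESeq2 gave 0, 2, 2, 8, 5, 6 and 5, against 2.55, 3.98, 9.02, 24.8, 9.68, 7.73 and 17.1% of all genes. Its size factors gave 0, 2, 2, 7, 3, 4 and 4, against 1.08, 2.03, 6.5, 19.1, 7.53, 5.98 and 9.82%. No filter gave 0, 1, 2, 6, 2, 3 and 2, against 0.428, 0.91, 3.52, 12, 4.16, 3.35 and 5.12%. Leaving out a library gave 0, 1 to 2, 2, 5 to 9, 1 to 3, 3 to 6 and 1 to 21. The shares of all genes were then 0.412 to 0.858, 0.838 to 1.7, 4.75 to 6.6, 11.5 to 24.6, 5.66 to 7.29, 4.46 to 7.62 and 3.76 to 49.8%. The 21 came without control library 1 of 4 h, where 49.8% of all genes were called. Copper fell to 3 without control library 2 or copper library 2 of 4 h, and time to 1 without control library 1 or 3 of 24 h. The DC comparisons and both differences between settings stayed at 0 in every one of these. Of the alternatives for single named members, 619 kept their side of the threshold, 47 lost the call and 25 gained it. A further 1, uncalled in both fits, moved by more than its SE. Of those called in either fit, 0 changed direction. Uncalled ones that moved by no more than 1 SE were counted as kept whatever their sign. Beyond the comparisons named in the methods the number was not taken to pair libraries. For TEPA and IFN against IFN the correlations were 0.0681, 0.538 and 0.559. The first was low and the others were as high as in comparisons taken as paired. Whether the number pairs those libraries is therefore not settled, and the block changed how many members were called there. The causes of the changes between settings were not tested. Low counts limit BHLHE40 and ADM, and 3 libraries per group limit all.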

Other observations

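Outside the members, TEPA raised targets of p53. Of 15 tested p53 targets, 7 rose with TEPA and none fell, against 1.06% of all genes called in either direction, and 12 rose in the average over IFN status, against 2.68% of all genes higher, including CDKN1A, the cell cycle inhibitor (1.38, SE 0.17), DDB2, a DNA damage sensor (1.21, SE 0.14), and MDM2, the ligase that degrades p53 (0.57, SE 0.11). SLC7A11, the cystine importer, fell by 1.19 (SE 0.22, adjusted p = 0.00917) with TEPA without IFN and had 0.14 (SE 0.21, adjusted p = 1) with IFN. The difference between these, 1.32 (95% interval 0.69 to 1.96, unadjusted p = 0.000352, adjusted p = 1 in edgeR), was not called. It rose by 3.59 (SE 0.23) with copper at 4 h.

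IFN raised some hypoxia-linked genes outside the 38 members and lowered others. Their counts in each direction are given above, and 18.8% of all genes were called with IFN. AK4, a mitochondrial adenylate kinase, rose by 0.95 (SE 0.13, adjusted p = 1.54e-05) and CA12, a carbonic anhydrase, by 1.72 (SE 0.34, adjusted p = 0.00132), and both stayed called with the GC trend removed. LOX, a lysyl oxidase, fell by 0.86 (SE 0.17, adjusted p = 0.00146). PPP1R3C (-0.93, adjusted p = 0.00565 in edgeR) and TMEM45A (-0.52, adjusted p = 0.0239 in edgeR) were lower too. LOX, PPP1R3C and TMEM45A all stayed called with the GC trend removed. VEGFA was called at 0.69 (adjusted p = 0.049) but had -0.12 (adjusted p = 0.581) with the GC trend removed. VHL, which marks hydroxylated HIF for destruction, fell by 0.26 (SE 0.07, adjusted p = 0.0186).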
